A study of Mus musculus with 13 samples.

Results

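Published direct targets of miR-122 were followed in liver tumours of mir-122 knockout mice and in livers of wild type control mice. The list holds 35 genes, taken as the mouse genes that published target experiments on miR-122 had named, and each was measured by its probe set with the highest mean over the 13 arrays. Of these, 31 were measured, among 18193 genes on the array. Anxa11 and Entpd4 were present only in probe sets that name several genes, and G6pdx and Slc52a2 matched no probe set name. These 4 were not analysed here. Agpat1 and Mapre1 were named by the study of these knockout mice itself, so they are not independent evidence for the direction of the list.

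MiR-122 is the most abundant microRNA of hepatocytes. Like other microRNAs it guides an Argonaute protein to short complementary sites in messenger RNAs, mostly in their 3′ ends, and lowers the stability and translation of these messages. Messages with such sites are known to be more abundant where the microRNA is missing. An array measures the level of the message and not its translation.

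All mice had the B6/129 background. The groups were control_liver_11M (wild type liver at 11 months, n = 2), control_liver_14M (wild type liver at 14 months, n = 3), KO_tumor_11M (tumours of mir-122 knockout mice at 11 months, n = 3) and KO_tumor_14M (such tumours at 14 months, n = 5). No knockout liver without a tumour was measured, so the effects of the genotype and of the tumour cannot be told apart. The labels do not say that the tumours came from separate mice, and the p-values therefore measure the spread between these samples. In bulk tissue, fewer cells of a type and less RNA per cell cannot be told apart either. Levels are given on the log2 scale of the deposited values, on which a difference of 1 is a doubling. Differences are log2 fold changes of tumours against controls with both ages weighted equally, with the standard error (SE) of the fit.

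Without the probe sets of the targets, the first principal component of the arrays placed the 5 controls between -79.1 and -64.3 and 5 tumours between 67.6 and 92.0. The tumours KO_tumor_11M replicate 1 (-2.7), KO_tumor_11M replicate 2 (-18.1) and KO_tumor_14M replicate 4 (1.4) stood apart between them. On the second component these tumours were at -72.4, -24.9 and -72.1, outside the range of all other arrays (7.9 to 24.7). The control pair of control_liver_11M replicate 1 with control_liver_14M replicate 3 was nearly identical (r = 0.9948, with 58 probe sets over 2-fold apart, against 485 in the next closest pair). Of the 13 arrays, 3 lack the number after a hyphen that the other titles carry (KO_tumor_14M replicates 1 and 2 and control_liver_14M replicate 3). The titles of KO_tumor_14M replicates 1 and 2 differ only by a final digit. Whether both came from the same mouse is not stated. Their correlation (r = 0.9866) was the highest of any tumour pair, with the next at 0.9864. They were kept as separate arrays, and averaging them was among the settings run. Hepatocyte markers had a mean level of 12.78 to 13.09 in controls and 11.76 to 12.89 in tumours, so the hepatocyte transcripts of the labelled tissue were present on every array.

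The sequences just upstream of the transcription start are shown for 4 targets that rose, so that their start regions can be seen beside their values. They are the 4 with the largest rise among those with a single listed promoter outside the gene body. Each run is the 250 bases before the start in RefSeq's table for GRCm38.p6, written 5′ to 3′ on the strand of the gene. Fundc2 lies at chrX:75382149-75382398 (plus strand), Slc7a1 at chr5:148399905-148400154 (minus), Tmed3 at chr9:89705044-89705293 (minus) and Gys1 at chr7:45434589-45434838 (plus). Capitals mark the matches on either strand to these motifs: the GC box, searched as GGGCGG, then the CCAAT box by its own letters, the E-box written as CACGTG, and last the TATA box in the form TATAAA.
Fundc2: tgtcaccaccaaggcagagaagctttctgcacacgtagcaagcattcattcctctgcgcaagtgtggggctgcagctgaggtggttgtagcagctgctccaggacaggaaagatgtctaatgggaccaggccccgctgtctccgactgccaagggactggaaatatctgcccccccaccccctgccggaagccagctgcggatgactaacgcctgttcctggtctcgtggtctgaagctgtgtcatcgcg
Slc7a1: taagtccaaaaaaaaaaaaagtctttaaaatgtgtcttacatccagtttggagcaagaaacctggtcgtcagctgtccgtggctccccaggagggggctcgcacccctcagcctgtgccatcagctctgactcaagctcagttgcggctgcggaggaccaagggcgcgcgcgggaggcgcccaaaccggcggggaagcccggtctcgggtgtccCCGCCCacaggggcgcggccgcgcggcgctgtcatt
Tmed3: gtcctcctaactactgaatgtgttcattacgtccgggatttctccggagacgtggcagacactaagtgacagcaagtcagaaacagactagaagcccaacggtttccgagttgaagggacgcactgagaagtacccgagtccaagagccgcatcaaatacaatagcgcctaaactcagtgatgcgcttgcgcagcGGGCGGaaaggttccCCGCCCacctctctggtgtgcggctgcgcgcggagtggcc
Gys1: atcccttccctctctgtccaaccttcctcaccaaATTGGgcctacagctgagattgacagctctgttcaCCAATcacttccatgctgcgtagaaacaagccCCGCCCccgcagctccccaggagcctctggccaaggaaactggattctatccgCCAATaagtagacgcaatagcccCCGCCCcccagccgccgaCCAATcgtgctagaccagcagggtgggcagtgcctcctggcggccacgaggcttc
Slc7a1 held 1 GC box and Tmed3 2, Gys1 held 2 GC boxes and 4 CCAAT boxes, and Fundc2 held none of these motifs. The GC box was found in 15 of the 18 called targets and 8 of the 10 uncalled targets with a printable promoter entry, and in 32.7% of all 32851 promoters of this length. The CCAAT box was in 9 of 18 and 4 of 10 (33.8% of all), the E-box in 2 and 1 (6.02%), and the TATA box in 3 and 2 (12.4%). A target was counted when any of its listed promoters held the motif, while the share of all promoters counts each entry by itself. The counts and these shares are therefore not in like units. A match is a description of the letters and does not show binding.

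Of the 31 measured targets, 20 were higher in tumours at an adjusted p under 0.05 (limma, Benjamini-Hochberg over all genes), 0 were lower and 11 did not pass. These 20 are 64.5% of the measured targets, where 10.3% of all genes were called higher and 9.81% lower. The log2 fold changes of the targets ran from -0.24 to 2.10 with a median of 0.89, and the median over all genes was -0.05. For 17 targets (54.8%) every tumour lay above every control, a pattern seen in 6.22% of all genes, and all 17 were among the 20 called. The reverse pattern was seen in 0 targets and in 5.07% of all genes. A rise of at least 2-fold that passed the test was seen in 14 targets and in 849 of all genes (4.67%). Array levels of 26 of the 31 targets lay above the median gene.

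**Figure D1:**
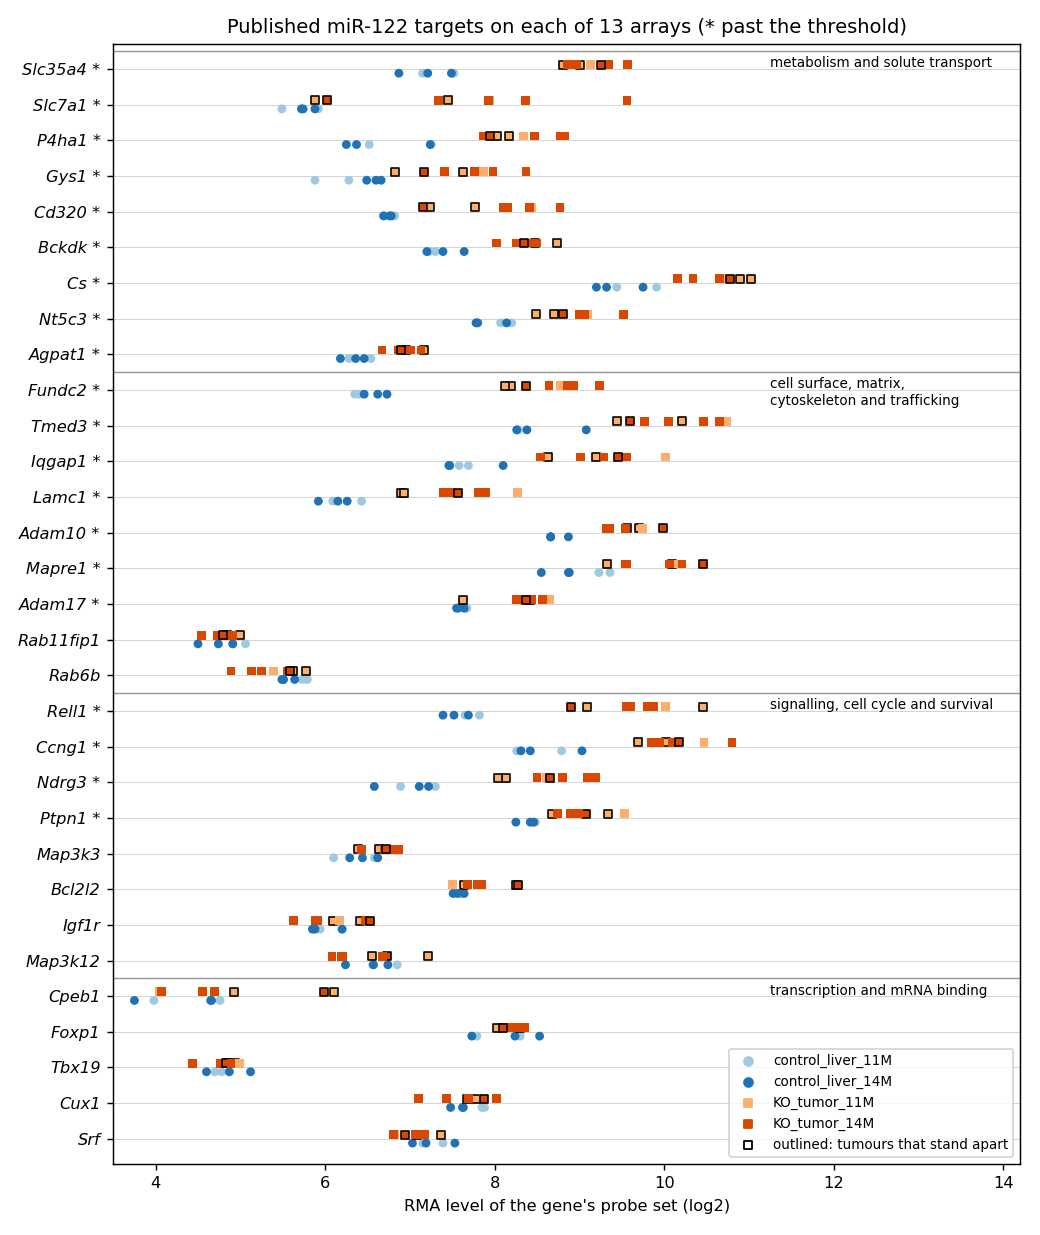
Log2 level of each measured target (rows, grouped by role, an asterisk marks an adjusted p under 0.05) on each of the 13 arrays, with circles for control livers, squares for tumours, shades for age and black outlines for the 3 tumours that stand apart. In 17 targets all squares lie to the right of all circles, and in the 5 targets of transcription and mRNA binding at the bottom the 2 kinds of symbol overlap.

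All 9 measured targets of metabolism and solute transport rose, with a median log2 fold change of 1.22, and in 8 of them every tumour exceeded every control. Slc35a4, a member of the nucleotide sugar carrier family, stood at 7.52 and 7.15 in control_liver_11M, at 6.87, 7.21 and 7.49 in control_liver_14M, at 8.81, 9.01 and 9.13 in KO_tumor_11M and at 9.34, 9.57, 8.86, 9.25 and 8.97 in KO_tumor_14M. The lowest tumour lay 1.30 above the highest control, and the log2 fold change was 1.83 (SE 0.15, adjusted p = 5.58e-05). Slc7a1, the cationic amino acid transporter CAT-1 and one of the first described targets of miR-122, stood at 5.92 and 5.49 in control_liver_11M and at 5.88, 5.72 and 5.74 in control_liver_14M. In KO_tumor_11M it was at 5.88, 7.45 and 7.94, and in KO_tumor_14M at 8.36, 9.56, 7.34, 6.02 and 7.93. The tumours thus differed among themselves by far more than the controls (SD 1.20 against 0.17): KO_tumor_11M replicate 1 lay among the controls and KO_tumor_14M replicate 4 just above them. The log2 fold change of Slc7a1 was 1.72 (SE 0.53, adjusted p = 0.0413), the highest adjusted p of the called targets.

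P4ha1 encodes a catalytic subunit of the prolyl hydroxylase that matures collagen. It stood at 7.25, 6.52, 6.25, 6.37 and 7.24 in the controls and at 7.87, 8.26 and 8.83 in the lowest, the median and the highest tumour (1.53, SE 0.23, adjusted p = 0.00179). Its 2 high controls were the nearly identical ones, and the groups did not overlap. Gys1, the muscle-type glycogen synthase, had control levels of 6.28, 5.88, 6.66, 6.49 and 6.60 and tumour levels from 6.82 over a median of 7.70 to 8.37 (1.26, SE 0.23, adjusted p = 0.00388). The gap between the groups was small, at 0.15, with KO_tumor_11M replicate 2 as the lowest tumour. Cd320, the receptor that takes up vitamin B12 bound to transcobalamin, lay within 6.69 to 6.82 in all controls and at 7.16, 8.13 and 8.77 in the lowest, median and highest tumour (1.22, SE 0.26, adjusted p = 0.00899). The 2 lowest tumours for Cd320 were among the tumours that stand apart.

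Bckdk, the kinase that switches off branched-chain keto acid breakdown, was at 7.35 ± 0.18 in controls (mean ± SD, n = 5) and 8.41 ± 0.21 in tumours (n = 8), a log2 fold change of 1.10 (SE 0.11, adjusted p = 0.000159). No tumour overlapped a control, and the 95% interval ran from 0.86 to 1.34. Cs, citrate synthase of the mitochondrial citric acid cycle, stood at 9.52 ± 0.30 in controls and 10.58 ± 0.33 in tumours (1.09, adjusted p = 0.0011). The pyrimidine nucleotidase Nt5c3 rose by 0.90 (adjusted p = 0.00199) and Agpat1, an acyltransferase that makes phosphatidic acid, by 0.59 (adjusted p = 0.00303). In these 4 targets the tumours did not overlap the controls, although for Agpat1 the gap was 0.13.

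Of the 9 measured targets of the cell surface, matrix, cytoskeleton and trafficking, 7 rose and 2 did not pass, with a median log2 fold change of 0.89. Fundc2, a FUN14 domain protein of the mitochondrial outer membrane, was placed here as a membrane protein, and without it 6 of 8 rose (median 0.88). It had the largest difference of all 31 targets. It stood at 6.35 and 6.40 in control_liver_11M, at 6.46, 6.73 and 6.62 in control_liver_14M, at 8.19, 8.12 and 8.78 in KO_tumor_11M and at 8.93, 8.86, 9.24, 8.37 and 8.64 in KO_tumor_14M. The lowest tumour was 1.40 above the highest control (2.10, SE 0.16, adjusted p = 3.18e-05), a linear fold of 4.28. Tmed3, a p24 family cargo receptor between the endoplasmic reticulum and the Golgi, was at 8.27, 8.28, 8.38, 9.08 and 8.26 in the controls, where control_liver_14M replicate 2 was the high one. Its tumours ran from 9.44 over a median of 10.13 to 10.73 (1.69, SE 0.25, adjusted p = 0.0016).

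Iqgap1, a scaffold that links small GTPases to actin, was at 7.58, 7.69, 8.10, 7.46 and 7.47 in the controls and at 8.54, 9.24 and 10.02 in the lowest, median and highest tumour (1.57, SE 0.25, adjusted p = 0.00201). Lamc1, the gamma 1 chain of basement membrane laminins, was at 6.43, 6.09, 6.26, 6.15 and 5.92 in the controls and at 6.90, 7.53 and 8.27 in the tumours likewise (1.31, SE 0.22, adjusted p = 0.00288). In both, KO_tumor_11M replicate 3 was the highest array and the groups did not overlap. The membrane proteases Adam10 and Adam17 shed the outer parts of surface proteins, and Adam17 releases TNF. Adam10 rose by 0.89 (adjusted p = 0.000812) with every tumour above every control. Adam17 rose by 0.69 (adjusted p = 0.00926), and 7 of 8 tumours lay above every control. Its exception was KO_tumor_11M replicate 1, at 7.63 against a highest control of 7.67. Mapre1, the microtubule plus-end protein EB1, rose by 0.87 (adjusted p = 0.0107). Its controls stood at 9.23, 9.36, 8.88, 8.55 and 8.87 and its tumours at 9.33, 10.07 and 10.46 (lowest, median and highest), again with KO_tumor_11M replicate 1 as the tumour that did not clear the controls. Rab11fip1 (-0.02, adjusted p = 0.891) and Rab6b (-0.21, adjusted p = 0.25), which serve recycling endosomes and Golgi traffic, did not pass.

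Of the 8 targets of signalling, cell cycle and survival, 4 rose and 4 did not pass. Rell1, a relative of the TNF receptor family member RELT, stood at 7.65 and 7.82 in control_liver_11M, at 7.69, 7.52 and 7.39 in control_liver_14M, at 9.09, 10.46 and 10.02 in KO_tumor_11M and at 9.88, 9.55, 9.60, 8.90 and 9.80 in KO_tumor_14M. The lowest tumour was 1.09 above the highest control (2.07, SE 0.23, adjusted p = 0.000316). Ccng1, cyclin G1, a target of p53, was at 8.79, 8.26, 8.42, 8.31 and 9.03 in the controls and at 9.69, 10.06 and 10.80 in the lowest, median and highest tumour (1.56, SE 0.21, adjusted p = 0.000812). The 2 high controls were again the nearly identical pair. Ndrg3, of the N-myc downstream-regulated family, was at 6.89, 7.30, 7.22, 6.58 and 7.11 in the controls and at 8.04, 8.63 and 9.19 in the tumours likewise (1.52, SE 0.17, adjusted p = 0.000319). Ptpn1, the phosphatase PTP1B that acts on the insulin receptor, rose by 0.64 (adjusted p = 0.00804), with a gap of 0.20 between the groups.

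The kinase Map3k3 was the uncalled target nearest the threshold (0.27, adjusted p = 0.139). It stood at 6.10 to 6.62 in controls and 6.39 to 6.87 in tumours, so the groups overlapped. Bcl2l2, the survival factor Bcl-w, had a log2 fold change of 0.26 (adjusted p = 0.195), the growth factor receptor Igf1r 0.13 (adjusted p = 0.586) and the kinase Map3k12 -0.11 (adjusted p = 0.699). None of the 5 targets of transcription and mRNA binding passed, by limma, and their median was 0.04. The serum response factor Srf had the lowest value of all targets (-0.24, adjusted p = 0.192), with controls from 7.03 to 7.53 and tumours from 6.80 to 7.37. The homeodomain factor Cux1 was at -0.02 (95% interval -0.34 to 0.29), the forkhead factor Foxp1 at 0.09 (-0.22 to 0.39) and the T-box factor Tbx19 at 0.04 (-0.20 to 0.27). For these 3 the intervals exclude a doubling. Cpeb1, which binds messenger RNA and controls its polyadenylation, had a wide interval of -0.31 to 1.41 around 0.55 (adjusted p = 0.331), which does not exclude one. Its low mean level of 4.68, and those of Tbx19, Rab11fip1, Rab6b and Igf1r, lay below the median gene.

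**Figure D2:**
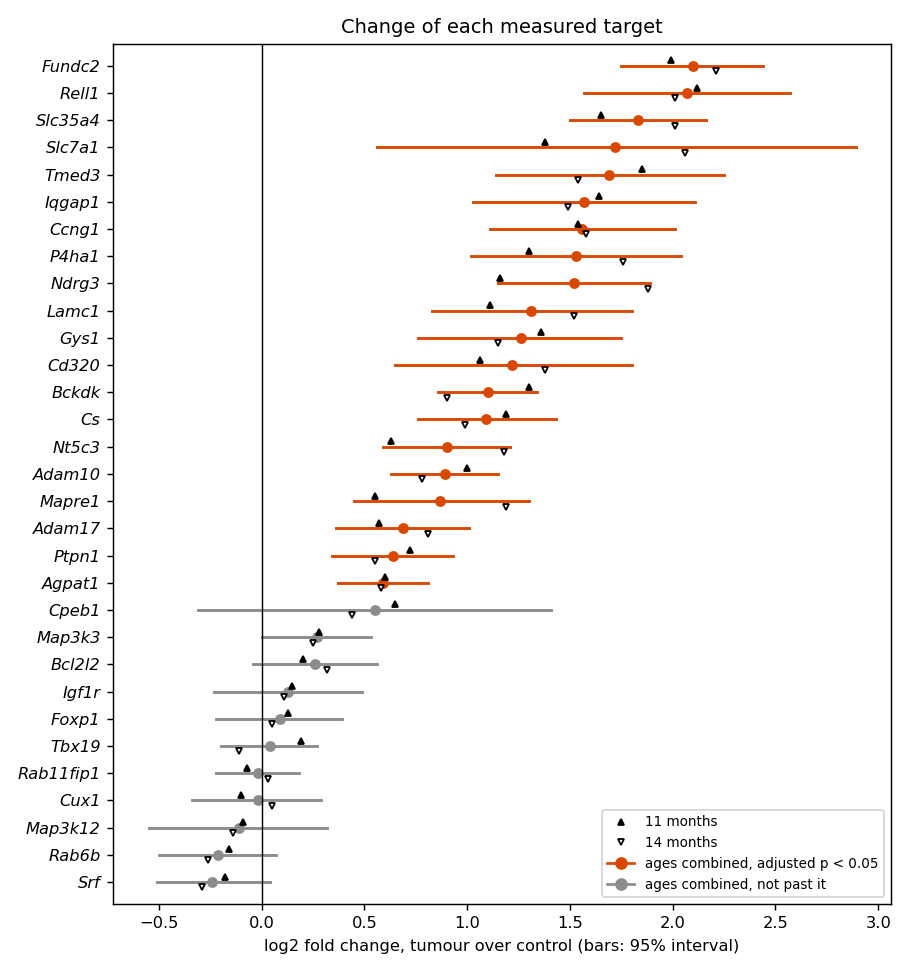
Log2 fold change of tumours against controls for each measured target with both ages combined (with its 95% interval) and at 11 and 14 months. The targets run from 2.10 for Fundc2 to -0.24 for Srf, and Slc7a1 has the widest interval among those called, from 0.56 to 2.89.

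At 14 months alone 19 targets (61.3%) were higher and 0 lower, where 8.37% of all genes were called higher and 6.88% lower. At 11 months alone 8 targets (25.8%) were higher and 0 lower, where 1.31% and 0.61% of all genes were. The 8 were Fundc2, Rell1, Slc35a4, Tmed3, Ccng1, Bckdk, Cs and Adam10, and all 8 were also called at 14 months. Slc7a1 alone among the 20 passed at neither age (adjusted p = 0.438 at 11 and 0.0565 at 14 months). The median log2 fold change of the targets was 0.72 at 11 and 0.90 at 14 months. The 11-month count rests on few arrays: by limma it was 2 without control_liver_11M replicate 1, 0 without control_liver_11M replicate 2, 5 without control_liver_14M replicate 2 and 3 without KO_tumor_11M replicate 3. Leaving out either array of control_liver_11M left 1 control at that age. So did leaving out both nearly identical controls, and leaving out the 3 tumours that stand apart left 1 tumour at 11 months. At 14 months the count was 11 without both nearly identical controls and 20 without those tumours.

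The difference between the ages was tested itself, and by limma 0 targets and 0% of all genes passed (0 targets and 544 genes at an unadjusted p under 0.05). The largest such difference was that of Ndrg3, whose rise was 0.71 larger at 14 than at 11 months (adjusted p = 0.999). Between tumours of 14 and 11 months 0 targets passed (3 at an unadjusted p under 0.05), with 1 of all genes called (0.0055%). Those 3 were Cs, at 10.86 ± 0.18 (n = 3) at 11 months and lower by a log2 difference of -0.45 at 14 months, Ndrg3 (0.58) and Fundc2 (0.44), each with an adjusted p of 0.776 or above. Between controls of the 2 ages 0 targets and 0% of genes passed (0 targets and 326 genes unadjusted), with target differences between -0.53 and 0.51.

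Each tumour showed the rise. The median of the targets' levels, each taken against the mean of the controls, was 0.67, 0.93 and 1.12 in the 3 tumours of KO_tumor_11M and 0.65, 0.77, 0.94, 0.79 and 0.83 in the 5 of KO_tumor_14M. In the controls it lay between -0.05 and 0.05, and over all genes between -0.08 and 0.02 on any array. Of the 20 called targets, all 20 lay above every control in 7 tumours, and 17 did in KO_tumor_11M replicate 1, where Slc7a1, Mapre1 and Adam17 did not. Of all genes called higher, 82.4% to 98% lay above every control in a given tumour. Because these 20 were called from the same arrays, these counts describe the tumours and are no test.

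**Figure D3:**
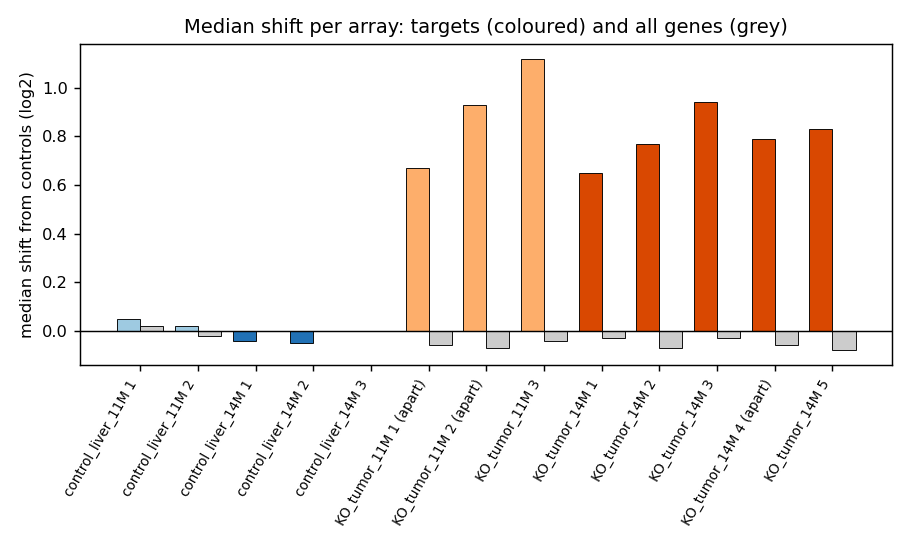
Median over the 31 measured targets (coloured bars) and over all genes (grey bars) of the log2 level minus the mean of the controls, on each array. The targets' bars lie between 0.65 and 1.12 in the 8 tumours and between -0.05 and 0.05 in the 5 controls, and the grey bars stay between -0.08 and 0.02.

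The 3 tumours that stand apart, between controls and the other tumours on the first component only, were set against the range of the other 5. This is a description, since the 3 were picked by their values on these arrays. KO_tumor_11M replicate 1 had 14 targets below that range, 9 within and 8 above, KO_tumor_11M replicate 2 had 7, 19 and 5, and KO_tumor_14M replicate 4 had 8, 15 and 8. For 3 targets all of these tumours lay below the other 5. Cd320 was at 7.24, 7.77 and 7.16 against 8.10 to 8.77, Nt5c3 at 8.70, 8.49 and 8.80 against 9.0 to 9.52, and Fundc2 at 8.19, 8.12 and 8.37 against 8.64 to 9.24, each still above every control. For Cs (11.02, 10.89 and 10.78 against 10.15 to 10.68), Rab6b and Cpeb1 they lay above. Over all genes, 9.33% had all 3 tumours below the others and 7.05% above. Without the 3 tumours 20 targets were again called higher with the ages combined. Slc7a1 was low in KO_tumor_11M replicate 1 and KO_tumor_14M replicate 4 but not in KO_tumor_11M replicate 2.

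The 31 targets have 102 probe sets, and the 71 that were not used above did not all follow the ones used. Higher in tumours were 22 and lower 2, and 47 did not pass, when p-values were adjusted over all 45037 probe sets, of which 7.41% were higher and 8.04% lower. Among the 40 above the median level of all probe sets, 20 were higher, and among the 31 below it, 2 were. For 10 of the 20 called targets every probe set was called higher, among them Fundc2, Ccng1, Cs and Ndrg3. The other probe set of Ndrg3 differed by 2.0, that of P4ha1 by 1.93 and the second of Slc7a1 by 1.99 (adjusted p = 0.0262). Slc35a4 had a second probe set at 2.16 and 3 dim ones at 0.03 to 0.13 that did not pass. Tmed3, Lamc1, Cd320, Nt5c3 and Ptpn1 each had 1 other probe set, at 0.21, 0.27, -0.17, -0.11 and 0.24, which did not pass. The mean levels of these probe sets were 3.71, 5.27, 3.83, 2.96 and 7.87, so that of Ptpn1 was not dim. The 2 that were lower belong to targets that rose: Iqgap1 (-0.39, adjusted p = 0.0314, mean level 4.52) and Adam10 (-0.26, adjusted p = 0.0469, mean level 5.07). Both targets also had brighter other probe sets that were called higher, at 1.99 and 1.48 for Iqgap1 and at 1.08 and 0.72 for Adam10. None of the probe sets of the 11 uncalled targets passed in the same test.

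**Figure D4:**
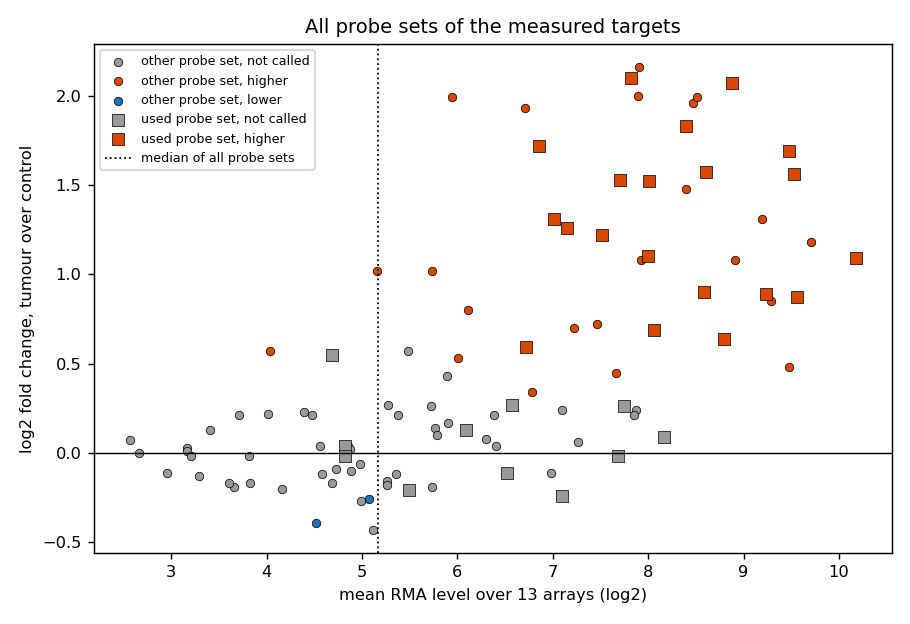
Log2 fold change of every probe set of the targets against its mean log2 level over the 13 arrays, with the probe sets used for the genes set off from the others. The other probe sets that were called higher lie mostly to the right of the median level of all probe sets (5.164).

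Close relatives of the targets, genes of the same family that are not on the list, were measured for comparison. Among 53 measured of 55, there were 7 that rose, 7 that fell and 39 that did not pass, with a median log2 fold change of 0.10. These shares lie near those of all genes (10.3% higher and 9.81% lower). The counts were 6 higher and 1 lower without control_liver_11M replicate 1, 3 and 1 without control_liver_11M replicate 2, 5 and 4 without control_liver_14M replicate 2, 6 and 3 without control_liver_14M replicate 3, and 7 and 2 without KO_tumor_11M replicate 3. Gys2, the liver glycogen synthase, fell by 1.21 while Gys1 rose by 1.26. Gys2 stood at 10.28 ± 0.29 in controls and 9.06 ± 0.56 in tumours (adjusted p = 0.0135), with every tumour below every control. Iqgap2 fell by 0.60 (adjusted p = 0.0234) beside the rise of Iqgap1, again with no overlap. The calls of Gys2 and Iqgap2 were lost without either control of control_liver_11M, without both nearly identical controls and, for Iqgap2, without KO_tumor_11M replicate 3 or with the mean of its probe sets (adjusted p up to 0.0838 and 0.124).

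Other relatives rose with their target or beside one that did not pass. Fundc1, the mitophagy receptor related to Fundc2, rose by 1.21 (adjusted p = 6.5e-05). Ptpn2, the phosphatase closest to Ptpn1, had the largest called rise of the relatives, 1.37 (adjusted p = 0.00452), next to 0.64 for Ptpn1, and both Fundc1 and Ptpn2 passed in each of the 24 settings run for single genes. The survival factor Bcl2 rose by 0.71 (adjusted p = 0.0164) and the Golgi GTPase Rab6a by 0.40 (adjusted p = 0.00628), while the targets Bcl2l2 and Rab6b did not pass. Ptpn2, Bcl2 and Rab6a were picked for mention after their values were seen. The difference between a target and its relative was not tested.

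The relatives of the other targets among the 12 with the largest rise did not pass. Among amino acid carriers Slc7a2 differed by 0.07 and Slc7a3 by 0.14, and among the prolyl hydroxylase subunits P4ha2 by 0.20 and P4ha3 by 0.04. Ndrg1 differed by 1.63 with a wide spread (adjusted p = 0.0537), Ndrg2 by -0.41 and Ndrg4 by 0.02. Ccng2, the second cyclin G, differed by 0.78 (adjusted p = 0.0628). Tmed2, Tmed9 and Tmed10 lay between -0.09 and 0.22, Slc35a1, Slc35a2, Slc35a3 and Slc35a5 between -0.36 and 0.37, and Rell2 and Relt at -0.14 and -0.04. Iqgap3 (0.77, adjusted p = 0.0637) and Lamc3 (0.30) did not pass either.

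**Figure D5:**
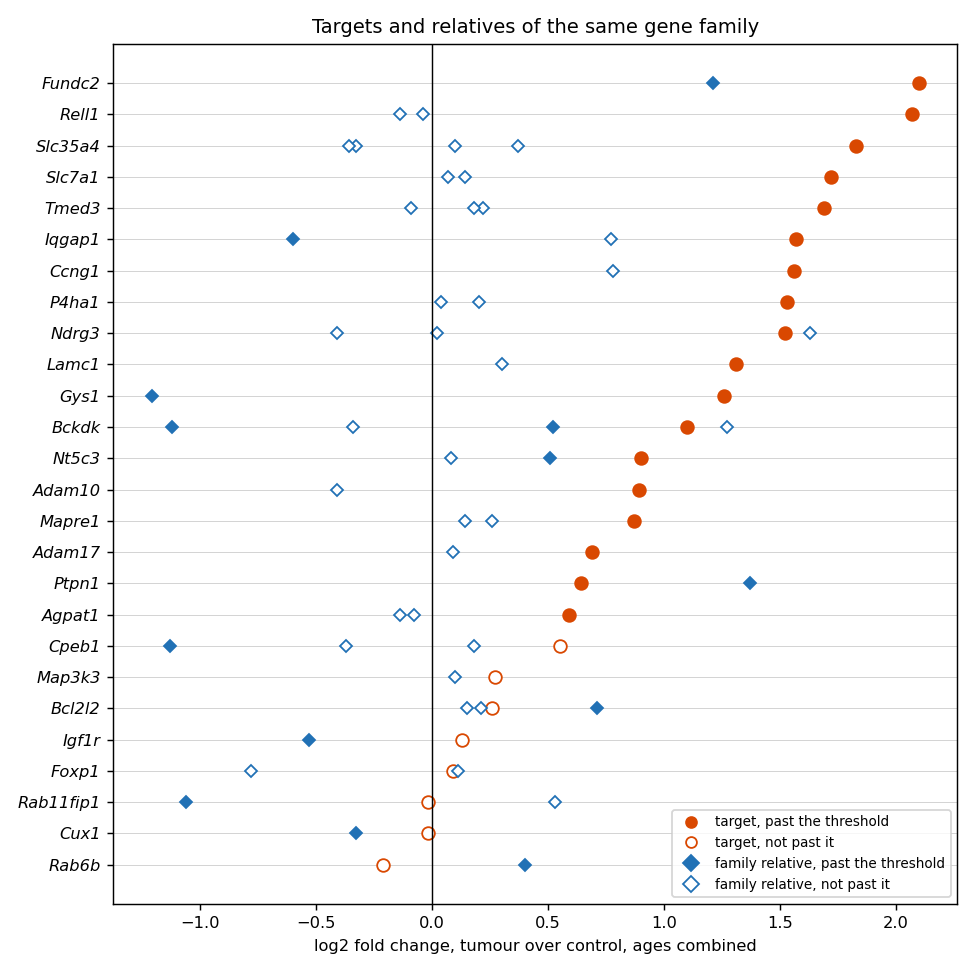
Log2 fold change of tumours against controls for the targets with measured relatives (circles) and for those relatives (diamonds), filled where the adjusted p is under 0.05. Gys1 (1.26) and Gys2 (-1.21), and Iqgap1 (1.57) and Iqgap2 (-0.60), lie on opposite sides of 0, and Fundc2 (2.10) and Fundc1 (1.21) on the same side.

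Of 16 measured genes that make or use microRNAs, among 17 listed, 3 rose, 3 fell and 10 did not pass, with a median of -0.07, next to 10.3% higher and 9.81% lower over all genes. Ago2, the Argonaute that can cut its target, rose by 0.90 (adjusted p = 0.027), Drosha, which releases the hairpin precursors in the nucleus, by 0.89 (adjusted p = 0.00106) and Tarbp2, a partner of Dicer, by 0.56 (adjusted p = 0.0282). Ago1 had the largest fall, of 0.63 (adjusted p = 0.0167). Prkra (-0.57, adjusted p = 0.00532) and Dicer1 (-0.47, adjusted p = 0.0116) fell too, each with every tumour below every control. Drosha passed in each of the 24 settings that were run for single genes, and Prkra and Dicer1 each in 23. Ago2, Tarbp2 and Ago1 passed in 17, 16 and 21 of them. The list held 1 higher and 1 lower gene without control_liver_11M replicate 2, and 1 higher and 3 lower without control_liver_11M replicate 1, control_liver_14M replicate 1 or KO_tumor_11M replicate 3. Of 6 measured factors that act on the mir-122 gene, Cebpa fell by 0.87 (adjusted p = 0.0215) and 5 did not pass, with a list median of -0.4. Those 5 were Foxa1 (-1.75), Onecut1 (-0.68), Hnf4a (-0.12), Foxa2 (-0.08) and Myc (0.42). Cebpa no longer passed when either array of control_liver_11M, or replicate 2 of control_liver_14M, was left out. Of 6 further genes named by the study of these mice, and so not independent, 4 were higher (Cidec, Vim, Ccl2 and Tgfb1) and 0 lower. Vim and Tgfb1 passed in each of 24 settings and Ccl2 in 15. The count of 4 fell to 2 with only arrays that have a number after a hyphen in the title. It also fell without control_liver_11M replicate 2, which left 1 control at 11 months.

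Some markers of other cells of the liver were called between tumours and controls too, and within most lists the log2 fold changes had both signs. Only the stellate cell and fibroblast list held calls in both directions. Of the 9 stellate cell and fibroblast markers 4 were higher, Col1a1 (3.14), Col3a1 (2.62), Col1a2 (2.21) and Pdgfrb (1.33), and Lrat was lower (-0.88). Their mean log2 level ran from 7.47 to 8.19 in controls and from 7.71 to 9.48 in tumours, and Col1a1, Col3a1 and Pdgfrb lay above every control in all 8 tumours. Of the 8 macrophage markers Cd68 was higher (1.94) and the other 7 did not pass, with a list median of -1.19. Of these 7, Clec4f (-2.16), Timd4 (-1.87), Vsig4 (-1.86), Cd5l (-1.28) and Marco (-1.09) were at negative values. Adgre1 (0.91) and Csf1r (0.27) were at positive ones. The macrophage mean was 8.22 to 8.68 in controls and 6.68 to 9.46 in tumours. It lay below every control in 6 of 8 tumours and above every control in 2. Of the 8 endothelial markers Lyve1 (2.24) and Pecam1 (0.92) were higher and the other 6 did not pass. Among those 6, Clec4g (-2.0), Stab2 (-1.13), Tek (-0.71) and Kdr (-0.24) were at negative values and Vwf (1.01) and Cdh5 (0.5) at positive ones. The endothelial means were 7.05 to 7.27 in controls and 6.50 to 7.78 in tumours. Of the 4 neutrophil markers S100a9 (2.72) and S100a8 (2.66) were higher in all 8 tumours, while Camp (-0.06) and Ngp (-0.16) lay above every control in none, and the means were 4.82 to 6.04 and 6.18 to 7.5. Of the 4 proliferation markers Mki67 was higher (2.07), with means of 4.63 to 6.40 and 5.09 to 9.25. Top2a (1.99), Cdk1 (1.84) and Birc5 (1.53) did not pass, and all 4 had an unadjusted p under 0.05 by limma.

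None of the 9 hepatocyte, 5 cholangiocyte and 7 lymphocyte markers passed, by limma (1, 0 and 1 at an unadjusted p under 0.05). Means ran from 4.59 to 5.04 in controls and 4.47 to 5.75 in tumours for cholangiocytes and from 4.87 to 5.12 and 4.85 to 5.67 for lymphocytes. The hepatocyte mean lay below every control in 6 of 8 tumours, with the largest value for Cyp2e1 (-2.81, adjusted p = 0.162). Apoa1 (-0.59) and Apob (-0.44) came next, and Alb, Ttr, Cps1, Fgb, Ass1 and Hnf4a lay between -0.12 and 0. Leaving out the 3 tumours that stand apart left 1 tumour at 11 months. More markers were then called, in both directions. Hepatocyte markers were called lower, lymphocyte and proliferation markers higher, and macrophage and endothelial markers both ways. All 4 proliferation markers were called higher without KO_tumor_11M replicate 1 alone. Without KO_tumor_11M replicate 2 alone, 3 macrophage and 2 endothelial markers were called lower. The higher calls among stellate and endothelial markers were all lost without control_liver_11M replicate 2, and again without both nearly identical controls. Leaving out either array of control_liver_11M, replicate 1 or 2 of control_liver_14M, or replicate 2 or 5 of KO_tumor_14M lost Mki67. Lrat passed in 12 and Pecam1 in 10 of the 24 settings run for single genes. Cd68, S100a8 and S100a9 passed in all 24. The part of these cell types in the rise of the targets was not tested.

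With the ages combined, 15 of the 20 called targets passed under each of the 24 settings run for single genes (other ways to scale, choose or combine probe sets, other fits, and arrays left out). Slc7a1 was lost in 11, among them leaving out any 1 of the 5 controls, KO_tumor_11M replicate 2 or 3, or KO_tumor_14M replicate 1 or 5 (adjusted p from 0.0616 to 0.146). Without both nearly identical controls Cd320 (adjusted p = 0.0743), Mapre1 (0.0777), Adam17 (0.0739) and Ptpn1 (0.0673) were lost as well, which left 15 targets called. None of the 11 uncalled targets passed in any of these settings of the limma fit.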

How the data were processed

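Messenger RNA levels were read from 13 Affymetrix arrays of 1 colour, labelled with biotin. The authors deposited log2 values from robust multi-array analysis (RMA) in Partek's Genomics Suite, per the submitters' processing notes. Not given in the sources used here are its version, its settings and whether all arrays were run together. On RMA values the differences of dim probe sets can be understated. Array medians lay between 5.127 and 5.218.

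Of 45101 probe sets, 64 are array controls, 34945 name 1 gene, 932 several and 9160 none. Each of 18193 genes was taken by its probe set with the highest mean, without a filter on level. A single limma model (version 3.58.1 in R 4.3.3, with lmFit and eBayes) held 1 mean for each group over the 13 arrays. Benjamini-Hochberg adjustment ran over all genes, and 0.05 was the threshold. Combined differences weigh the ages equally, so they can differ from the difference of printed means. Groups come from the labels, and replicates are numbered by accession order.

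The targets, their roles and the other lists were chosen with earlier results of these data known. All targets are given. Values per array or group were printed for the 12 largest rises and the targets nearest the threshold. Of the other targets whose probe sets differ or that were lost in an alternative, some are given without such values, among them Adam10, Nt5c3 and Ptpn1. From each other list the text names up to 3 genes with the largest called change and the largest opposite one, and of relatives those of the 12 leading targets. Further genes of the short lists, called or not, were named as well, after their values were seen. Motifs were searched on both strands of RefSeq's promoter table. The fit was tested on simulated data. Software for tables and plots was Python 3.11.15 (pandas 2.3.3, numpy 2.4.6) with matplotlib 3.10.9. With 2 to 5 arrays in a group, precision is limited by their number.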

Additional observations from a re-analysis of the deposited data

Results flagged for a closer look

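Of the 31 measured targets, 2 had an array in KO_tumor_14M (n = 5) far from the others of its group. The survival factor Bcl2l2 was at 8.27 in KO_tumor_14M replicate 4, where the next highest of the group was at 7.85. KO_tumor_11M replicate 1, another tumour that stands apart, was at 8.25. Tbx19 was at 4.44 in KO_tumor_14M replicate 3, where the next lowest was at 4.77, at a level below the median gene. Chance alone gives such an array in about 1 in 20 groups, and neither target was called.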

How the results depend on the processing

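With the ages combined, the count of 20 targets called higher stayed within 1.5 times under all 26 settings, with 19 to 20 when 1 array was left out and 15 to 20 otherwise, and 0 targets were called lower in any of them. At 11 months the count of 8 ran from 0 to 10 when 1 array was left out. It was 3 with only the numbered titles (arrays whose title holds a number after a hyphen) and 3 at an adjusted p under 0.01. With only the arrays of the 2 groups compared it was 0. Leaving out both nearly identical controls, or the 3 tumours that stand apart, left 1 array in a group at 11 months. At 14 months the count of 19 ran from 13 to 20 when 1 array was left out, and was 11 without both nearly identical controls, 7 with only the numbered titles and 11 at an adjusted p under 0.01. Fewer arrays or a stricter threshold enter these settings, and for the rest the cause was not tested. With only the numbered titles Cd320 (adjusted p = 0.0522) and Adam17 (0.0623) were also lost with the ages combined. When all probe sets of a gene were averaged, the rises of some targets were smaller but passed, for instance 0.53 for Cd320 and 0.39 for Nt5c3. Ndrg3, whose other probe set rose by 2.0 against 1.52 for the one used, was not among those with a smaller rise. No paired analysis was possible because replicates were numbered by accession order, which pairs nothing.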
